A study of Mus musculus with 3 samples.

Results

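Vascular endothelial growth factor (VEGF) and angiopoietin signalling was followed through 10 genes in retinae of mice whose eyes were injected, into the vitreous, with 1 of 2 agents tied to the caveolar coat protein caveolin-1 or with a control. The 10 were the ligand genes Vegfa, Vegfb, Vegfc and Pgf, their receptor genes Flt1, Kdr and Nrp1, the angiopoietin genes Angpt1 and Angpt2, and their receptor gene Tek. They were chosen by name, all 10 were measured, and they stood among 22180 genes that the array annotation names by 1 symbol. Expression was measured on 3 Affymetrix whole-transcript arrays of C57 mouse retina, 1 array per group, each of RNA pooled from 5 to 6 retinae. Cav1-shRNA retinae received a short hairpin RNA named for Cav1 and were taken 2 days after injection. Cavtratin retinae received cavtratin, a cell-permeable peptide with the scaffolding domain of caveolin-1, and were taken 2 hr after injection. AP control retinae received AP, which the labels name as the control and do not spell out, and were also taken at 2 hr. The Cav1-shRNA array therefore differs from AP control in time as well as in agent, and these cannot be told apart. With 1 array per group no spread between retinae or pools exists, so every difference compares 2 arrays and none has a test.

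VEGF-A drives endothelial growth and vessel leakage mainly through the receptor tyrosine kinase encoded by Kdr. Flt1 encodes a receptor that binds VEGF-A, VEGF-B and placental growth factor with high affinity and can act as a decoy, and the Nrp1 product, neuropilin 1, is a co-receptor. Angiopoietin 1 activates the endothelial receptor Tie2, encoded by Tek, and steadies vessels, while angiopoietin 2 often opposes it. In the retina VEGF-A is made largely by Muller glia and other neural cells and acts on the vessels, and it is the target of drugs against neovascular eye disease.

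Values are the deposited expression values, read as log2, and a difference of 1 is a 2-fold difference. For a call of 2-fold or 1.5-fold apart, a gene needed a value of 6.50 or more in 1 of the arrays compared. That floor is the median of the mean values of probe sets with 1 symbol. Cav1 itself had 8.26 in all 3 arrays, and the array labelled Cav1-shRNA was not lower for the gene the hairpin is named for. Rod photoreceptor genes, which define the tissue, had mean log2 values of 11.73 in Cav1-shRNA, 11.72 in cavtratin and 11.74 in AP control over 10 measured genes. Exact ties, to within 1e-09, were frequent, and 43.2% of the 11510 genes that reached the floor in any array had a single value in all 3. An exact tie among the genes below is thus a common state of this table, and it does not show that a transcript was unchanged.

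The VEGF ligands differed little. Vegfa had log2 values of 9.41 in Cav1-shRNA, 9.51 in cavtratin and 9.41 in AP control. It was the same in Cav1-shRNA and AP control and higher in cavtratin by 0.093, which is 1.07-fold. Of the 11477 genes that reached the floor in that comparison, 15.6% differed by at least as much in size. Vegfb, whose product binds Flt1, had 8.85 in all 3 arrays. Vegfc, known mainly as the lymphatic growth factor that acts through Flt4, had 6.20 in all 3 arrays, below the floor. Pgf, which encodes placental growth factor, another Flt1 ligand, had 5.04 in Cav1-shRNA, 5.15 in cavtratin and 5.04 in AP control. All 3 Pgf values lay far below the floor, where differences are poorly measured, and cavtratin was again the array that stood apart, here by 0.11.

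Among the receptors, Kdr showed the largest difference of the 10 genes. Kdr had 9.87 in Cav1-shRNA, 9.87 in cavtratin and 9.63 in AP control. The Cav1-shRNA and cavtratin values were exactly equal and both stood 0.24 above AP control, a 1.18-fold difference. In the cavtratin comparison 5.71% of genes at or above the floor differed by at least this much in size, and in the Cav1-shRNA comparison 4.81% of 11433 genes did. Both comparisons use the same AP control array, so a deviation of that array alone would appear in each. As a yardstick within these arrays, 271 genes had more than 1 probe set averaging at least 6.50, and their cavtratin differences disagreed by a median of 0.040 and a 95th percentile of 0.34 between probe sets of 1 gene. For the Cav1-shRNA differences these were 0.041 and 0.28. These are gaps between 2 differences, and the SD of 1 difference that follows from them was 0.12 for cavtratin and 0.086 for Cav1-shRNA. The Kdr difference of 0.24 lay above both SDs. It was below both 95th percentiles of the gaps, but a gap between 2 differences spreads more widely than 1 difference. These percentiles therefore set no upper mark for Kdr. After centring each array on its median the Kdr difference was 0.30 in Cav1-shRNA, because centring added 0.058 to every gene of that comparison. This yardstick holds no spread between retinae, and Kdr had 1 probe set, so no second probe set could be set beside it.

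Flt1 had 8.41 in Cav1-shRNA, 8.41 in cavtratin and 8.35 in AP control. Its pattern was that of Kdr, with equal Cav1-shRNA and cavtratin values, but the difference from AP control was 0.061, or 1.04-fold, and 21.7% of genes in either comparison differed by at least as much. Nrp1 had 7.06 in Cav1-shRNA, 7.06 in cavtratin and 7.08 in AP control. Here AP control was the higher array, by so little (a difference of −0.018) that centring each array on its median, or quantile normalization, turned the sign of the Cav1-shRNA difference.

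The promoter windows of Kdr and Flt1 are shown because these receptor genes shared 1 pattern over the arrays. Each holds the 250 bases before the start that RefSeq gives, 5′ to 3′ on the gene's own strand, in build GRCm38.p6. Kdr lies on the minus strand at chr5:75978456-75978705 and Flt1 on the minus strand at chr5:147726012-147726261. Capitals mark matches on either strand to the GC box GGGCGG, bound by Sp1 and related factors, to the TATA box TATAAA, or to the core of the hypoxia response element ACGTG, bound by hypoxia-inducible factors (HIF).
Kdr: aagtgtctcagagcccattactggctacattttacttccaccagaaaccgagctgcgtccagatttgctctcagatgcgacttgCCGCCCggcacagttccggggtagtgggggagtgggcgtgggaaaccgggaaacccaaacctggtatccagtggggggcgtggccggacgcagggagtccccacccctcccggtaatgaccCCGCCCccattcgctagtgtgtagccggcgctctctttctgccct
Flt1: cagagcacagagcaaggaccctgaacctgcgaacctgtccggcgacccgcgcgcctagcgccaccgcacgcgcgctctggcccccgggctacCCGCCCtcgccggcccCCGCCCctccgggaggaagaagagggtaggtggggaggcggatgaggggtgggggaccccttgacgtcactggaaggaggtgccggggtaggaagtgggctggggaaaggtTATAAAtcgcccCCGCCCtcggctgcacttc
The Kdr window had 2 GC boxes, and the Flt1 window had 3 GC boxes and 1 TATA box. The GC box occurred in 32.7% of 32851 RefSeq windows of the same length, the TATA box in 12.4% and the hypoxia core in 16.6%. Neither window held the hypoxia core, which says only that these letters are not in these 250 bases. GC content was 61.6% in Kdr and 70.4% in Flt1, against a median of 52.4% over all windows. The letters GGAA, the core of ETS factor sites, occurred 4 times in each window, and in 93.4% of all windows at least once. RefSeq windows were found for 8 of the 10 genes, all but Angpt1 and Angpt2. A match is a description of the sequence and not a bound site.

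The angiopoietins lay below the floor in all 3 arrays. Angpt1 had 4.58 in Cav1-shRNA, 4.64 in cavtratin and 4.76 in AP control. All 3 arrays differed, with AP control highest, and the differences from AP control were −0.18 for Cav1-shRNA and −0.12 for cavtratin. A second Angpt1 probe set had 3.69 in all 3 arrays, so the 2 probe sets of this gene disagree on whether there was any difference. Angpt2, which endothelial cells store and release on activation, had 5.85 in Cav1-shRNA, 5.87 in cavtratin and 5.87 in AP control. The Cav1-shRNA array was lower by a difference of −0.018, and the sign turned after centring and after quantile normalization. Tek, the angiopoietin receptor, had 6.62 in Cav1-shRNA, 6.61 in cavtratin and 6.61 in AP control. It was just above the floor in every array, and the Cav1-shRNA array differed from both others by 0.018.

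**Figure D1:**
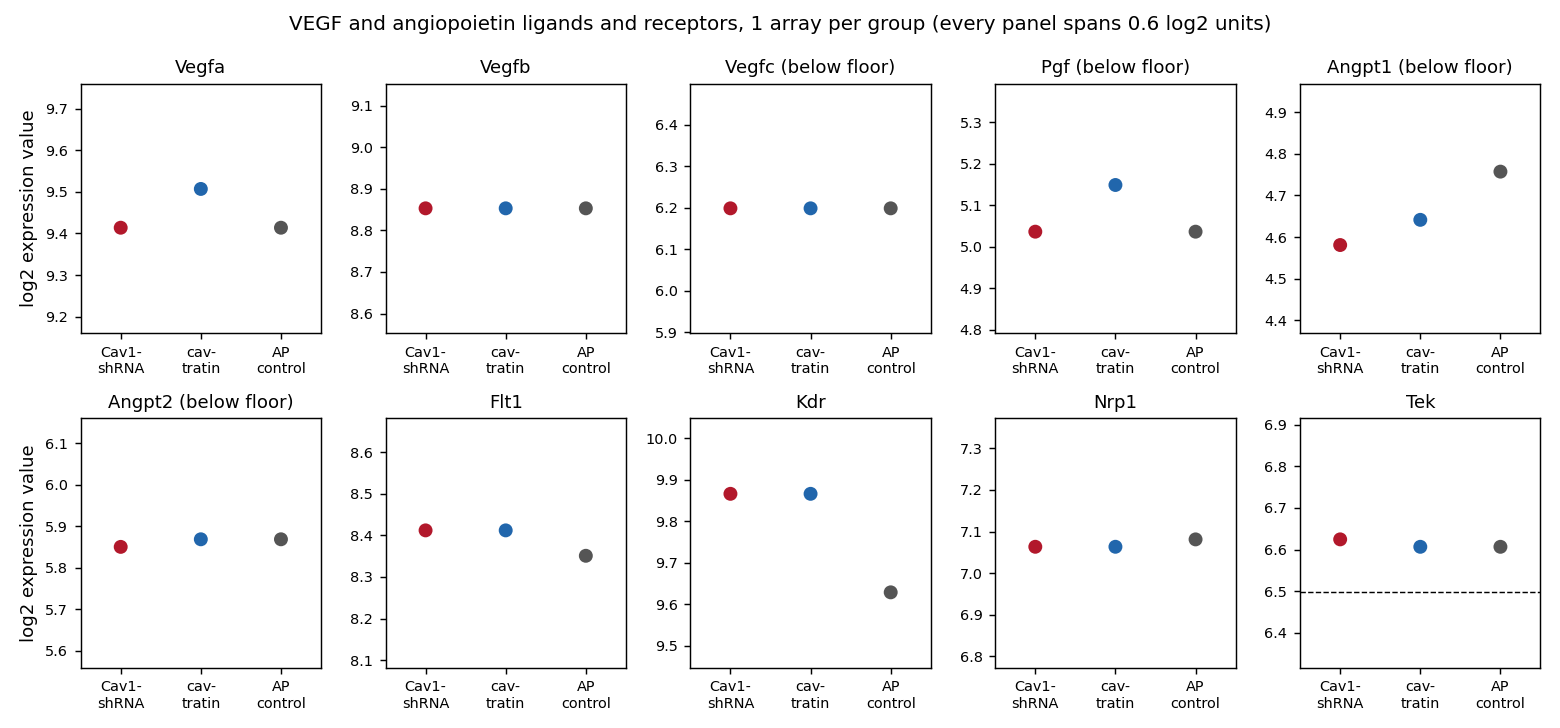
Deposited log2 expression values (vertical axes, each spanning 0.6 units around the gene's own values) of the 10 genes in the Cav1-shRNA, cavtratin and AP control arrays (horizontal axes), 1 point per array, with no error bars because each group has 1 array; the dashed line in the Tek panel is the floor of 6.50. Kdr has the widest range, 0.24, with AP control the lowest array, and Vegfb and Vegfc have 1 value in all 3 arrays.

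Set against all genes, cavtratin against AP control at 2 hr gave 0 of the 10 members at least 2-fold apart, while 1.46% of all genes at or above the floor were (167 of 11477). At 1.5-fold, 0 members and 2.42% of all genes were counted, 278 in number. Of the 10 members 6 were at or above the floor and could be counted at all. With 6 such genes and these shares, a count of 0 is near the background and is not a result about the members. Over the 10 the median difference was 0, with 4 above 0, 4 exactly equal and 2 below, and a span of −0.12 to 0.24. Over all 22180 genes the median was also 0, with 17.5% above, 61.6% equal and 20.9% below.

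Cav1-shRNA against AP control likewise had 0 members at least 2-fold apart, beside 0.464% of 11433 genes at or above the floor, and 0 members at least 1.5-fold apart, beside 1.27%. The member median was 0, with 3 above, 4 equal and 3 below, from −0.18 for Angpt1 to 0.24 for Kdr. All genes had a median of 0, with 22.4% above, 59.1% equal and 18.5% below. Cav1-shRNA against cavtratin, which leaves out the AP control array, had 0 members at least 2-fold apart, beside 0.819% of 11472 genes, and 0 at least 1.5-fold apart, beside 1.62%. In that comparison Kdr, Flt1, Nrp1, Vegfb and Vegfc were exactly equal, Tek was higher by 0.018, and Vegfa, Pgf, Angpt1 and Angpt2 were lower, with differences of −0.093, −0.11, −0.061 and −0.018. After centring, the Kdr tie became a difference of 0.051.

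**Figure D2:**
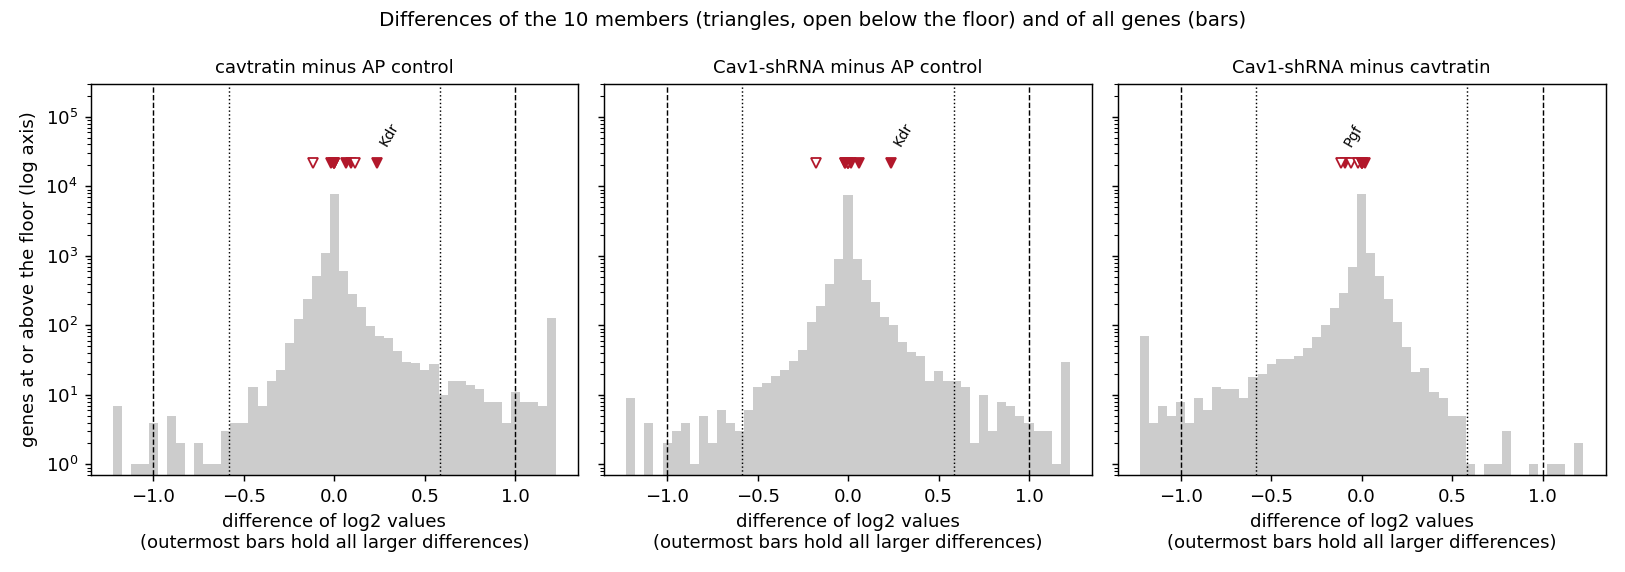
Number of genes at or above the floor (vertical log axis) by difference of log2 values (horizontal axis, 0.05 per bar, outermost bars holding all larger differences) in the 3 comparisons, with the 10 members as triangles, open where the gene lay below the floor, and dotted and dashed lines at 1.5-fold and 2-fold. All triangles lie within 0.24 of 0, inside the dotted lines, and the gene with the largest difference, named in each panel, is Kdr in both comparisons with AP control.

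By which array stood apart, the 10 genes spread over every pattern in the table. Kdr, Flt1 and Nrp1 had AP control alone apart, a pattern of 11.4% of genes at or above the floor. Vegfa and Pgf had cavtratin alone apart, a pattern of 9.48%, and Tek and Angpt2 had Cav1-shRNA alone apart, a pattern of 11.2%. Vegfb and Vegfc were equal in all 3 arrays, and Angpt1 differed in all 3, a pattern of 24.7% of genes at or above the floor. Vegfc, Pgf, Angpt1 and Angpt2 lay below the floor, so these shares are over a set that leaves them out. Among the genes with AP control alone apart, 555 had AP control as the lower array, and 19 of these, Kdr included, were apart by at least the Kdr difference. No member had a range of 0.5 over the 3 arrays, the minimum set for naming genes of like pattern, so none are named by that rule.

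The rest of the VEGF and Tie families also differed little. Of the 6 other family genes listed, Flt4, Nrp2, Angpt4, Tie1, Ptprb and Vegfd, only Nrp2 and Ptprb reached the floor and could be counted. Neither was 1.5-fold apart in any comparison. Ptprb, which encodes the endothelial phosphatase that restrains Tie2, had 7.66 in Cav1-shRNA, 7.50 in cavtratin and 7.52 in AP control. Nrp2, the second neuropilin, had 7.45 in all 3 arrays. Class 3 semaphorins, which share neuropilins with VEGF, and their plexin partners had 8 of 12 genes at or above the floor. Of these, 0 were past 1.5-fold in any comparison. With so few genes, and 1.27% to 2.42% of all genes past 1.5-fold, these counts of 0 are near the background. Plxnd1, the endothelial plexin that binds Sema3e, had 7.57 in Cav1-shRNA, 7.38 in cavtratin and 7.24 in AP control, the widest spread of that list. Sema3e itself had 7.92, 7.92 and 7.94 in the same arrays.

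Of 24 measured signalling genes downstream of the VEGF receptors, 20 reached the floor in cavtratin against AP control and 1 of them was past 1.5-fold, which is near the 2.42% of all genes. Mapkapk2, the kinase that links p38 to actin and cytokine transcripts, had 8.88 in Cav1-shRNA, 9.55 in cavtratin and 8.61 in AP control. It was 0.94 higher in cavtratin and 0.27 higher in Cav1-shRNA than in AP control, and the list median was 0 in each comparison. Genes of endothelial tip cells or known to respond to VEGF had a median of 0 over 20 genes in each comparison, with large single differences of both signs. In cavtratin 3 of the 10 that reached the floor were at least 1.5-fold higher than in AP control and 1 was lower. Over all genes 2.42% were so far apart in either direction. Cxcr4, a chemokine receptor, had 7.37 in Cav1-shRNA, 7.74 in cavtratin and 6.90 in AP control. Plaur, the urokinase receptor, had 6.61, 7.71 and 7.03 in the same arrays. Nr4a1, also among the higher genes in cavtratin, had 8.43, 9.06 and 8.43. Vcam1, an endothelial adhesion molecule, had 8.05 in Cav1-shRNA, 7.83 in cavtratin and 8.75 in AP control, highest in AP control. In Cav1-shRNA 1 of the 10 genes of the list at the floor was at least 1.5-fold higher and 2 were lower than in AP control, beside 1.27% of all genes. Igfbp3, a binding protein of insulin-like growth factors, was the higher one at 0.87, and F3, tissue factor, and Vcam1 were the lower ones at −0.71 and −0.70. Cxcr4, Plaur, Vcam1 and F3 are also made by leukocytes or induced in inflammation, and the values of leukocyte markers are given below. F3 had 7.88 in Cav1-shRNA, 8.49 in cavtratin and 8.59 in AP control. The part of leukocytes in these differences was not tested.

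Angiogenesis inhibitors held larger differences than any VEGF or angiopoietin gene. Thbs1, which encodes thrombospondin 1, had 9.16 in Cav1-shRNA, 10.94 in cavtratin and 7.96 in AP control. Adamts1, a metalloproteinase that can bind VEGF-A, had 8.38 in Cav1-shRNA, 8.48 in cavtratin and 9.36 in AP control. These pointed in opposite directions, and the other 9 of 11 measured genes in that list were less than 1.5-fold apart. The list median was 0 in each comparison. Against AP control 8 of the 11 were exactly equal in cavtratin and 5 in Cav1-shRNA.

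Vegfa is a standard target of HIF, and its value was set beside that of other such genes. Of 17 measured hypoxia-inducible genes, 3 were at least 2-fold higher in cavtratin than in AP control and 1 was in Cav1-shRNA, with 0 lower in either, beside 1.46% and 0.464% of all genes 2-fold apart in either direction. Most leukocyte markers were higher in the same arrays. Of 16 microglia and macrophage markers, 11 were higher and 1 lower in cavtratin than in AP control, and 15 higher and 0 lower in Cav1-shRNA. Of 14 neutrophil and monocyte markers, 11 were higher and 2 lower in cavtratin, and 11 higher and 1 lower in Cav1-shRNA. Not all of them reached the floor. Of the microglia and macrophage markers 14 did in each comparison, and of the neutrophil and monocyte markers 9 did in cavtratin and 5 in Cav1-shRNA. S100a8 had the largest cavtratin difference of these, 3.74, and 1.46 in Cav1-shRNA, while Ly6c2 had −0.43 and 1.49. The part of such cells in the hypoxia-inducible counts was not tested. Egln3, an oxygen-sensing prolyl hydroxylase, had 7.46 in Cav1-shRNA, 8.62 in cavtratin and 6.56 in AP control. Pfkfb3, a glycolytic regulator, had 7.40, 8.43 and 7.05 in the same arrays. Hmox1, heme oxygenase 1, which oxidative stress induces too, had 8.67, 9.28 and 7.39. In each of these 3 genes cavtratin was the highest array and AP control the lowest. The list medians against AP control were 0 in cavtratin, with 8 of the 17 genes exactly equal, and 0.017 in Cav1-shRNA, beside Vegfa differences of 0.093 and 0. Slc2a1, the glucose transporter of the blood-retina barrier, had 11.38 in Cav1-shRNA, 11.45 in cavtratin and 11.27 in AP control. The HIF subunit gene Hif1a had 11.61 in all 3 arrays, and Epas1, the HIF subunit gene prominent in endothelium, had 9.29, 9.29 and 9.39 in Cav1-shRNA, cavtratin and AP control.

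Kdr, Flt1 and Tek are expressed by endothelial cells, and in bulk retina a change in the number of such cells and in RNA per cell cannot be told apart. Vascular endothelium markers had mean log2 values of 6.76 in Cav1-shRNA, 6.70 in cavtratin and 6.61 in AP control over 18 measured genes. Against AP control 11 of the 18 were higher in Cav1-shRNA and 0 lower, with a median of 0.16. In cavtratin 9 were higher and 2 lower, with a median of 0.026. Only 11 of the 18 reached the floor. Sox18, Mmrn2, Ecscr and Icam2, counted as higher in Cav1-shRNA, lay below it, where differences are poorly measured. The Cav1-shRNA median fell between Icam2 at 0.15 and Ecscr at 0.16. None of the markers was 1.5-fold apart in any comparison, beside 1.27% to 2.42% of all genes. With 11 genes at the floor, this count of 0 is near the background. Emcn, which encodes the endothelial sialomucin endomucin, had 7.52 in Cav1-shRNA, 7.52 in cavtratin and 7.09 in AP control, the same tie as Kdr. Cdh5, the endothelial cadherin, had 8.24, 7.99 and 7.72 in these arrays, and Pecam1, an endothelial and leukocyte adhesion molecule, had 8.13, 8.17 and 7.78. Cldn5 had 7.15, 6.77 and 6.94, lowest in cavtratin, and 6 of the 18 had 1 value in all 3 arrays. By their means, endothelial markers lay on the same side of AP control as Kdr in both arrays, and their part in the Kdr difference was not tested.

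Markers of other cell types that make or receive VEGF were set beside the ligands. Muller glia markers, the main VEGF-A source named above, had means of 10.22 in Cav1-shRNA, 10.18 in cavtratin and 10.17 in AP control over 11 genes. None was 1.5-fold apart, which for 11 genes is near the background of 1.27% to 2.42% of all genes. Horizontal cell markers had medians of −0.0024 in cavtratin and 0.0041 in Cav1-shRNA against AP control over 6 genes. Retinal pigment epithelium markers, from the layer under the retina that also secretes VEGF-A, had means of 6.92 in Cav1-shRNA, 7.06 in cavtratin and 6.96 in AP control over 11 genes. The cavtratin array was thus the highest for these markers, as it was for Vegfa, and their part in the Vegfa difference of 0.093 was not tested.

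Leukocyte and lens markers set the arrays apart far more than the members did. Microglia and macrophage markers had means of 7.84 in Cav1-shRNA, 8.02 in cavtratin and 7.31 in AP control over 16 genes. Their median difference from AP control was smaller in cavtratin, 0.18, than in Cav1-shRNA, 0.51. In cavtratin 14 of the 16 reached the floor and 6 were at least 2-fold higher, beside 1.46% of all genes 2-fold apart in either direction. Of the 16, 4 were equal and 1 lower, so the higher mean does not hold for the list as a whole. Neutrophil and monocyte markers had means of 6.12, 6.71 and 5.69 over 14 genes in Cav1-shRNA, cavtratin and AP control. Lens markers had means of 6.26, 7.40 and 6.41 over 16 genes in these arrays. Flt1 is expressed by monocytes and macrophages as well as endothelium, and its difference of 0.061 stood beside these larger ones, whose part in it was not tested.

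**Figure D3:**
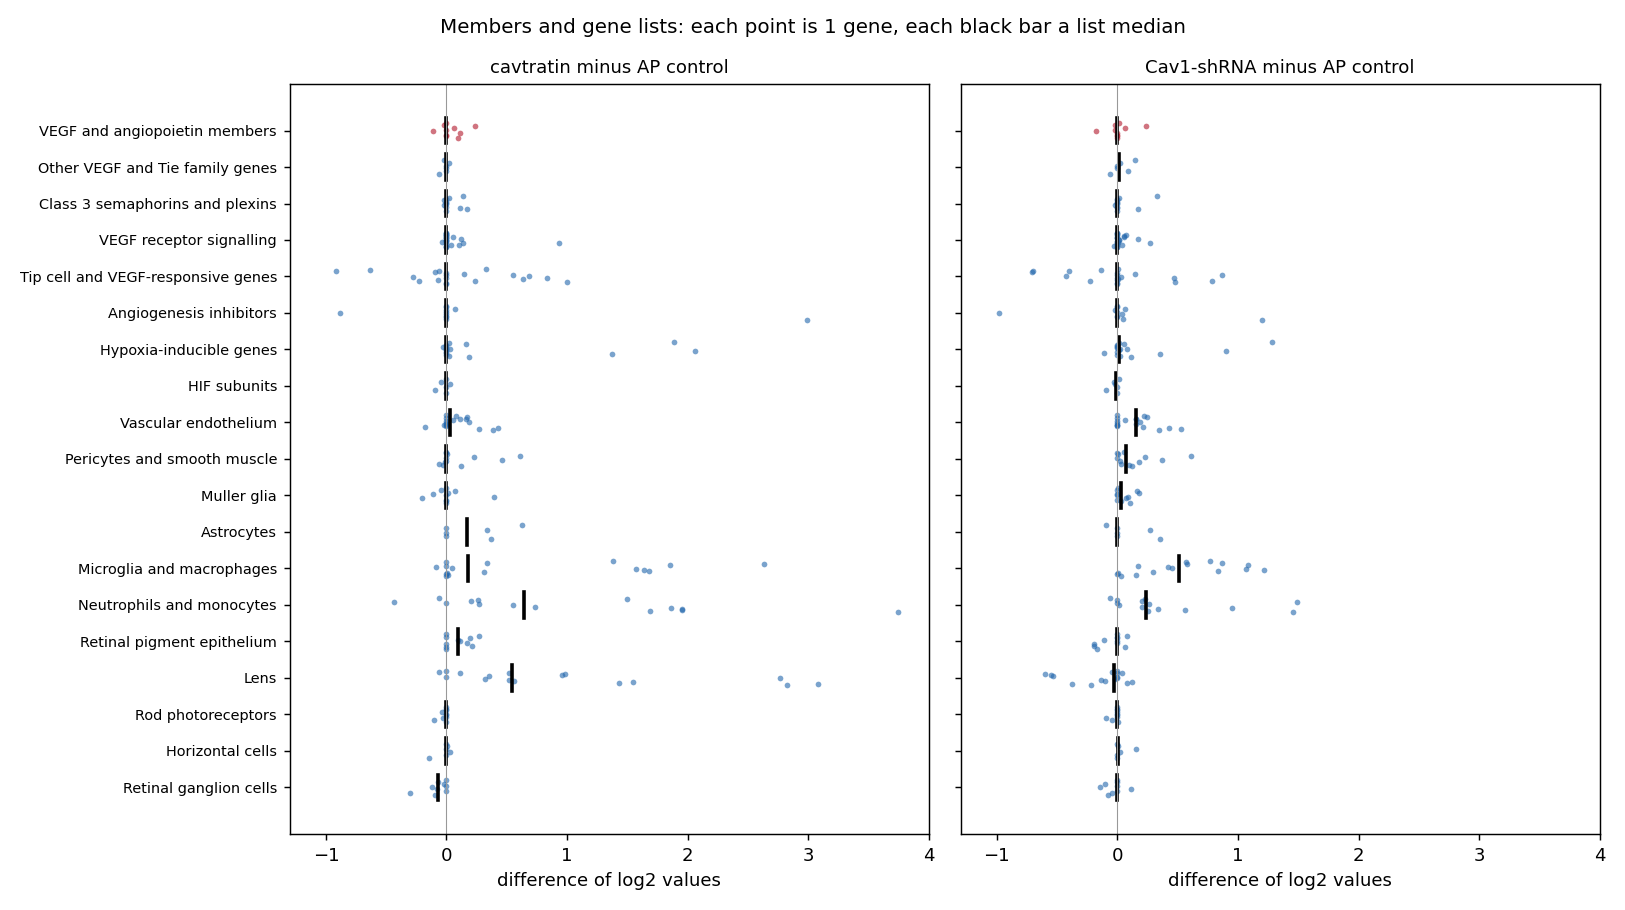
Difference of log2 values from AP control (horizontal axes) for the 10 members (top row) and 18 gene lists (other rows), in cavtratin on the left and Cav1-shRNA on the right, with 1 point per gene and a black bar at each list median. The members gather around 0, while microglia, neutrophil and, in cavtratin, lens markers spread to the right, and Thbs1 is the far point among angiogenesis inhibitors.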

How the data were processed

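Expression values came from the series' value table, 1 column per array and 41345 probe sets. Per the labels' protocols, TRIZOL-extracted RNA was amplified, labelled with biotin and hybridised to Affymetrix whole-transcript arrays. The deposited values were used as log2 expression. The log base was inferred from their range of 1.88 to 13.42, and no source used here states the summarisation or normalization. The 3 sorted columns differed by at most 0.21, so the arrays had close to 1 distribution. The platform annotation (possibly outdated) named 23521 probe sets by 1 symbol, 1814 by several, which were not used, and left 16010 unlisted. Of those with 1 symbol, 23328 matched RefSeq (GRCm38.p6) by Entrez identifier and 0 symbols were updated. The probe set with the highest mean stood for a gene, and 9 of the 10 members had 1 probe set.

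Differences were computed in Python 3.11.15 with pandas 2.3.3. With 1 array per group no test was run, no p-value or interval exists, and the number of arrays limits the precision. Named were all members, Cav1, and the list genes with the largest differences at or above the floor, at most 4 per list and comparison. Nrp2, Hif1a and the other VEGF and Tie family genes were named outside that rule, after their values were seen. The members and the 18 lists (7 pathway, 11 cell type) were chosen with earlier results of these data known. Counting was tested on simulated data. Alternatives were median centring, quantile normalization, a loess trend of span 0.3, other probe set rules, floors and thresholds.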

Additional observations from a re-analysis of the deposited data

How the results depend on the processing

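No paired analysis was possible because each group has 1 array, so the groups share only the replicate number 1. Moves were set against the SD of 1 difference between probe sets of a gene, 0.12 for cavtratin against AP control, 0.086 for Cav1-shRNA against AP control and 0.11 for Cav1-shRNA against cavtratin. The member medians moved by less than these. The counts of members past a threshold stayed at 0, also at 1.2-fold and 3-fold in place of 1.5-fold and 2-fold, and the number of lists with medians past 0.1 in either direction stayed within 1.5 times. Floors and thresholds cannot move a difference, and probe set rules can move Angpt1 alone. Of the 96 member differences recomputed under settings that could change them, 94 moved by less than the SD. The other 2 were Angpt1 in Cav1-shRNA against AP control, at 0 with its lower probe set and −0.088 with the mean of both. Signs turned in 3 of 30 member differences, all by Nrp1 or Angpt2 and of −0.018 in size, under centring and quantile normalization. Centring added 0.058 to every gene of Cav1-shRNA against AP control and 0.051 to every gene of Cav1-shRNA against cavtratin, so exact ties became small positive values. The largest member difference under any setting was 0.30, that of Kdr in Cav1-shRNA against AP control after centring. With 1 array per group, no setting measures the spread between retinae.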

Other observations

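By their means, genes of the vessel wall around the endothelium lay on the same side of AP control as Kdr, but in cavtratin their median difference was 0. Pericyte and smooth muscle markers had mean log2 values of 6.98 in Cav1-shRNA, 6.95 in cavtratin and 6.84 in AP control over 12 genes. Only 7 of the 12 reached the floor. In Cav1-shRNA 10 of the 12 were higher than in AP control and 0 lower, with a median of 0.074. That median fell between Tagln at 0.053 and Cspg4 at 0.096, both below the floor. In cavtratin 5 of the 12 were higher, 4 equal and 3 lower, and the largest differences were 0.61 for Anpep and 0.46 for Acta2. Anpep, an aminopeptidase of pericytes that myeloid cells also express, had equal values in Cav1-shRNA and cavtratin, 0.61 above the 6.39 of AP control. Acta2, smooth muscle actin, had 8.50, 8.59 and 8.13 in these arrays, while Rgs5, a pericyte marker, had 10.02, 9.93 and 9.99.

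Of the 19 genes with equal Cav1-shRNA and cavtratin values and an AP control value lower by at least the Kdr difference, Anpep and Emcn had the largest differences, 0.61 and 0.43. These were looked up after the values were seen. Both comparisons with AP control rest on the same array.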
